A study of Homo sapiens with 12 samples.

Results

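The SLC39 genes encode ZIP proteins, membrane carriers that move zinc, and in some members iron, manganese or cadmium, into the cytosol from outside the cell or from organelles. The 10 members described here are SLC39A1, SLC39A3, SLC39A4, SLC39A6, SLC39A7, SLC39A8, SLC39A9, SLC39A10, SLC39A13 and SLC39A14, chosen by name. Each was read from the probe sets annotated to that symbol alone. These numbered 26, and the brightest on average stood for its gene, with the others given beside it. All 10 genes were among the 10683 genes tested, of 19775 on the array, and 18 of the 26 probe sets passed the same filter.

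Expression was measured on Affymetrix arrays in HK-2, a human kidney line of immortalised proximal tubule cells. The 4 groups, each of 3 biological replicates with 1 array per replicate, were cells given CdCl for 12 h, control cells at 12 h, cells given CdCl for 48 h and control cells at 48 h. CdCl is the label's name, read here as a cadmium chloride from its chemical symbols, and no dose was stated. Controls received the vehicle. All cells shared a medium with insulin, transferrin, selenite, hydrocortisone and EGF. As 1 immortalised line the cells carry only part of the tubule's identity: of 14 proximal tubule markers on the array, 6 (DPP4, CDH6, CDH16, PAX8, SLC4A4 and GATM) exceeded 4 on the log2 scale on at least 3 arrays, while LRP2, CUBN, AQP1, SLC34A1, SLC5A2, SLC22A6, GGT1 and ANPEP lay under 4 on all 12. The 4 epithelial markers were all above it, and none of the podocyte, endothelial or leukocyte markers was. AQP2 was the 1 of 7 markers of the thick limb, distal tubule and collecting duct above it, and ACTA2 and COL1A1 were the 2 of 3 fibroblast and mural markers. At 12 h COL1A1 averaged 7.86 ± 0.12 in CdCl cells and 7.83 ± 0.12 in control cells (SD, n = 3 each), and ACTA2 5.04 ± 0.26 in CdCl cells and 5.61 ± 0.29 in control cells. At 48 h COL1A1 averaged 7.28 ± 0.06 in CdCl cells and 7.11 ± 0.10 in control cells, and ACTA2 4.80 ± 0.24 in CdCl cells and 5.41 ± 0.08 in control cells. The labels name only HK-2 cells, so these signals belong to cultures of that line. Their relation to the members' values was not tested.

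Cadmium has no dedicated carrier and enters cells through carriers of essential metals, among which ZIP8 and ZIP14, the products of SLC39A8 and SLC39A14, are the best known, both present in kidney tubules. In the other direction the SLC30 (ZnT) proteins move zinc out of the cytosol, and metallothioneins bind zinc and cadmium there. The transcription factor MTF1 senses zinc, switches on metallothionein genes and SLC30A1 through metal response elements, and in mouse and zebrafish represses Slc39a10.

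Promoter sequences are shown because metal response elements are the known route of MTF1 to its targets. SLC39A10 fell with CdCl at 48 h, when 8 of 9 tested metallothioneins and MTF1 rose. At 12 h the same number rose and SLC39A10 did not pass. In control cells at 48 h against 12 h both SLC39A10 and 7 of the 9 fell. A link between MTF1 and SLC39A10 was not tested. RefSeq windows of 300 bases (GRCh38.p14) ran from 250 bases before to 50 bases after a start site. They were searched for 8 of the 10 members, 14 windows in all. Windows of SLC39A4 and SLC39A14 were not among those searched, so the promoters of these genes were not examined. The core of the metal response element, searched as TGCACNC or TGCGCNC on both strands, stood in 6 of the 14 windows, beside 29.6% of all 35116 windows. Counted by gene it stood in 6 of 8, beside 33.4% of all 27305 genes. The window of SLC39A10 that holds it lies at chr2:195656976-195657275 on the plus strand, with the match, in capitals, downstream of the start site:
SLC39A10: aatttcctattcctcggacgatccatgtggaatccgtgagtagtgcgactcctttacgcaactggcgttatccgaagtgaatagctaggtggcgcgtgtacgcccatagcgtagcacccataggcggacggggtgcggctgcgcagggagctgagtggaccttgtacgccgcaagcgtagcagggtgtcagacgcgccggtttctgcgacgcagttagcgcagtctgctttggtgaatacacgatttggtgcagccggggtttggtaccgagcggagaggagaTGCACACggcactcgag
A second SLC39A10 window held none. For the 5 other members the match is printed in capitals with 11 bases on either side. The windows they come from lie at chr1:153963488-153963787, chr19:2740027-2740326, chr18:36129291-36129590 and chr4:102345433-102345732 on the minus strand and at chr11:47408340-47408639 on the plus strand, in the order of the lines, and here the match lies upstream of the start site:
SLC39A1: tcctccacagaTGCGCCCcagggccccag
SLC39A3: cgcttggtggcTGCGCCCgccgctcagcg
SLC39A6: ccccgcggcgcTGCGCGCggcggtaatta
SLC39A8: gccggcggtccTGCGCCCcggcgtggacg
SLC39A13: ccaaacggaagTGCGCCCtctacccgggt
None of these matches overlapped the other motifs searched. The antioxidant response element core TGACNNNGC, also on both strands, stood in 4 of the 14 windows (SLC39A1, SLC39A7, SLC39A9 and SLC39A13), beside 13.3% of all windows. By gene this was 4 of 8, beside 16.1% of all genes. The amino acid response element core TGATGNAA stood in 0 of the 14, beside 3.62% of all. A match is only a run of letters, and binding was not measured.

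The deposited values are log2 signals made with GCRMA, so a difference of 1 is a 2-fold change. Arrays of a group correlated at 0.996 to 0.998 over probe sets, and arrays of different groups at 0.970 to 0.988. Changes come from 1 limma fit of the 4 groups, are given with the standard error (SE), and passed where the Benjamini-Hochberg adjusted p, over all genes tested, was under 0.05. The labels call replicates biological without saying whether cultures or days differed, so p-values measure the spread between these samples. At 12 h the median of all genes tested was -0.16, so a member at that value stood with the bulk of the genes, and at 48 h it was -0.015. The number of arrays limits the precision. Signals come from whole cultures, so fewer cells carrying a transcript and less of it per cell cannot be told apart. No batch is named in the labels, so the time points and any difference in handling between them cannot be told apart.

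At 12 h CdCl cells differed from control cells in 2 of the 10 members: SLC39A14 rose 2.38-fold and SLC39A13 fell to 0.645 of the control level. This count depended on the probe sets: it was 4 (3 higher, 1 lower) with the mean of all probe sets of a gene, and 5 of 9 (4 higher, 1 lower) with the one of largest variance. Over all genes 56.4% passed (16.7% higher and 39.7% lower), and the members' median change was -0.11. Arrays of CdCl and control cells did not overlap for 6 members, 1 above and 5 below, beside 66.4% of all genes (19.8% above and 46.6% below). At 48 h 7 of 10 passed: SLC39A4, SLC39A14, SLC39A1, SLC39A6, SLC39A3 and SLC39A9 rose and SLC39A10 fell. Over all genes 54.6% passed at 48 h (26.5% higher and 28% lower), and the members' median change was 0.20. Arrays did not overlap for 7 members, 6 above and 1 below, beside 60% of all genes (29.1% above and 30.9% below). SLC39A14 was the only member past the threshold in both comparisons.

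**Figure D1:**
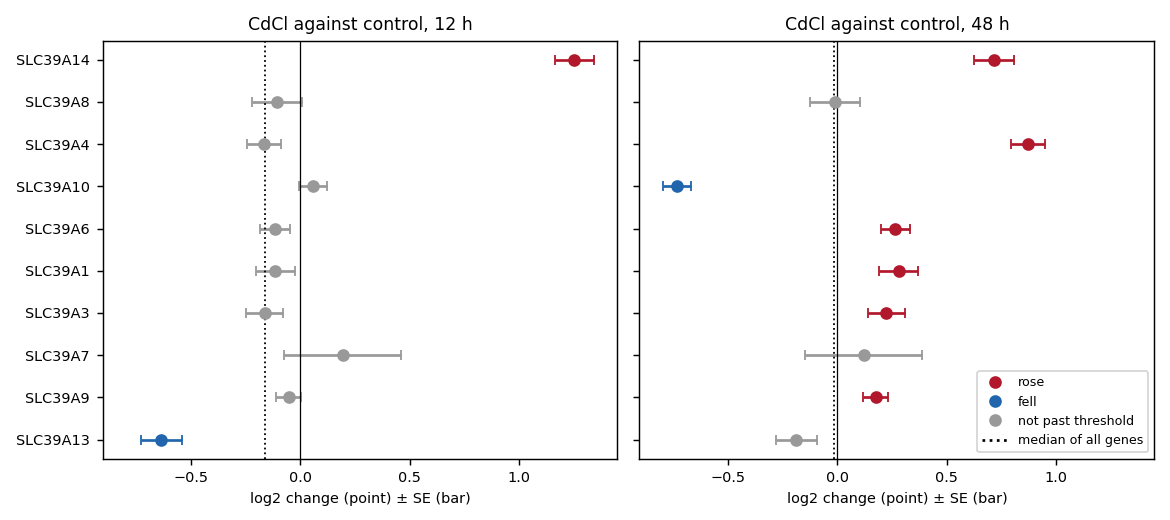
Log2 change in CdCl against control cells at 12 h (left) and 48 h (right) for each of the 10 members, points with SE bars from the fit, n = 3 arrays per group; red points rose, blue points fell and grey points did not pass. The dotted line is the median of all genes tested (-0.16 at 12 h, -0.015 at 48 h), and SLC39A14 at 1.25 and SLC39A13 at -0.63 stand apart at 12 h.

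SLC39A14 encodes ZIP14, a plasma membrane and endosomal carrier of zinc, iron, manganese and cadmium that is induced in the inflamed mouse liver. Its signals at 12 h were 11.07, 11.07 and 11.27 in CdCl cells, against 9.86, 9.75 and 10.06 in control cells. At 48 h they were 12.22, 12.08 and 12.24 in CdCl cells, against 11.42, 11.47 and 11.50 in control cells. CdCl arrays lay above controls at both times without overlap. The change was 1.25 ± 0.09 (SE) at 12 h (limma adjusted p = 6.4e-07), at the 96.9th percentile of all genes, and 0.72 ± 0.09 at 48 h (adjusted p = 3.9e-05). Its effect was smaller at 48 h by a tested difference of -0.54 ± 0.13 (adjusted p = 0.0062).

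The level of SLC39A14 also moved with time in culture. CdCl cells at 48 h stood 1.04 ± 0.09 above CdCl cells at 12 h (adjusted p = 1.2e-06). Control cells at 48 h stood 1.58 ± 0.09 above those at 12 h, a 2.98-fold difference (adjusted p = 5.8e-08). In descending order the groups were CdCl 48 h, control 48 h, CdCl 12 h and control 12 h, and each differed from the next (adjusted p = 3.9e-05, 0.0079 and 6.4e-07).

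SLC39A8 encodes ZIP8, the closest relative of ZIP14 and also known to take up cadmium. It gave 9.61, 9.71 and 9.51 in CdCl cells at 12 h, against 9.71, 9.74 and 9.70 in control cells. The values at 48 h were 9.72, 9.22 and 9.65 in CdCl cells, against 9.46, 9.55 and 9.62 in control cells. The groups overlapped at both times. Its changes of -0.11 ± 0.12 at 12 h (adjusted p = 0.46) and -0.01 ± 0.12 at 48 h (adjusted p = 0.95) did not pass, and no neighbouring pair in the order of its 4 group levels differed (adjusted p = 0.46 to 0.95). One array, CdCl 48 h replicate 2, was the low one, and without it the 48 h change was 0.15 (adjusted p = 0.14).

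SLC39A4 encodes ZIP4, the zinc carrier of the gut's absorbing surface, whose loss causes acrodermatitis enteropathica. At 48 h it gave 8.95, 9.13 and 8.87 in CdCl cells, against 8.19, 8.07 and 8.08 in control cells, with no overlap. That is 1.83-fold higher (0.87 ± 0.08, adjusted p = 2.7e-06). At 12 h it gave 8.70, 8.55 and 8.63 in CdCl cells, against 8.84, 8.77 and 8.77 in control cells, a change of -0.16 ± 0.08 that did not pass (adjusted p = 0.092) and equalled the median of all genes. The effect at 48 h minus that at 12 h was 1.03 ± 0.11 (adjusted p = 5.0e-05).

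The 48 h difference of SLC39A4 has components in both arms. CdCl cells at 48 h stood 0.35 ± 0.08 above CdCl cells at 12 h (adjusted p = 0.0019). Control cells at 48 h differed from control cells at 12 h by -0.68 ± 0.08 (adjusted p = 1.7e-05). The highest group was CdCl 48 h and the lowest control 48 h, and the 12 h groups between them did not differ from each other (adjusted p = 0.092).

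SLC39A10 encodes ZIP10, a plasma membrane zinc importer that pairs with ZIP6. Its signals at 48 h were 8.51, 8.55 and 8.53 in CdCl cells, against 9.28, 9.35 and 9.16 in control cells, and the groups did not overlap. This is 0.603 of the control level (-0.73 ± 0.06, adjusted p = 2.5e-06). At 12 h it gave 10.85, 10.94 and 10.94 in CdCl cells, against 10.86, 10.88 and 10.81 in control cells, overlapping, with a change of 0.06 ± 0.06 (adjusted p = 0.46). With each array centred on the median of the genes tested, the 12 h change was 0.21 and passed (adjusted p = 0.021).

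SLC39A10 also fell with time in both arms. In CdCl cells the 48 h level was 0.193 of the 12 h level (-2.38 ± 0.06, adjusted p = 4.2e-10), and in control cells it was 0.333 of it (-1.59 ± 0.06, adjusted p = 5.1e-09). The effect of CdCl at 48 h minus that at 12 h was -0.79 ± 0.09 (adjusted p = 8.6e-05). SLC39A10 has 1 probe set, so no second reading stands beside these values, and the same holds for SLC39A1, SLC39A4 and SLC39A7. The promoter window of SLC39A10 printed above is the one with the metal response element core downstream of the start.

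SLC39A6 encodes ZIP6 (LIV-1), the partner of ZIP10 and a gene known as oestrogen-responsive in breast cancer cells. At 48 h it gave 11.89, 11.93 and 11.90 in CdCl cells, against 11.59, 11.58 and 11.76 in control cells, a rise of 0.27 ± 0.07 without overlap (adjusted p = 0.0052). At 12 h it gave 11.52, 11.45 and 11.56 in CdCl cells, against 11.62, 11.59 and 11.66 in control cells. All 3 CdCl arrays lay below the controls there, but the change of -0.12 ± 0.07 did not pass (adjusted p = 0.16), and its sign turned (0.03) when arrays were centred on the median of the genes tested. CdCl cells at 48 h stood 0.40 ± 0.07 above CdCl cells at 12 h (adjusted p = 2.5e-04), while in control cells the difference between 48 h and 12 h did not pass (0.02 ± 0.07, adjusted p = 0.85). On the 3 other SLC39A6 probe sets control cells did differ over time, with 48 h above 12 h by 0.42, 1.27 and 0.25 (adjusted p = 0.0060, 2.9e-06 and 0.043 in the fit of all probe sets).

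**Figure D2:**
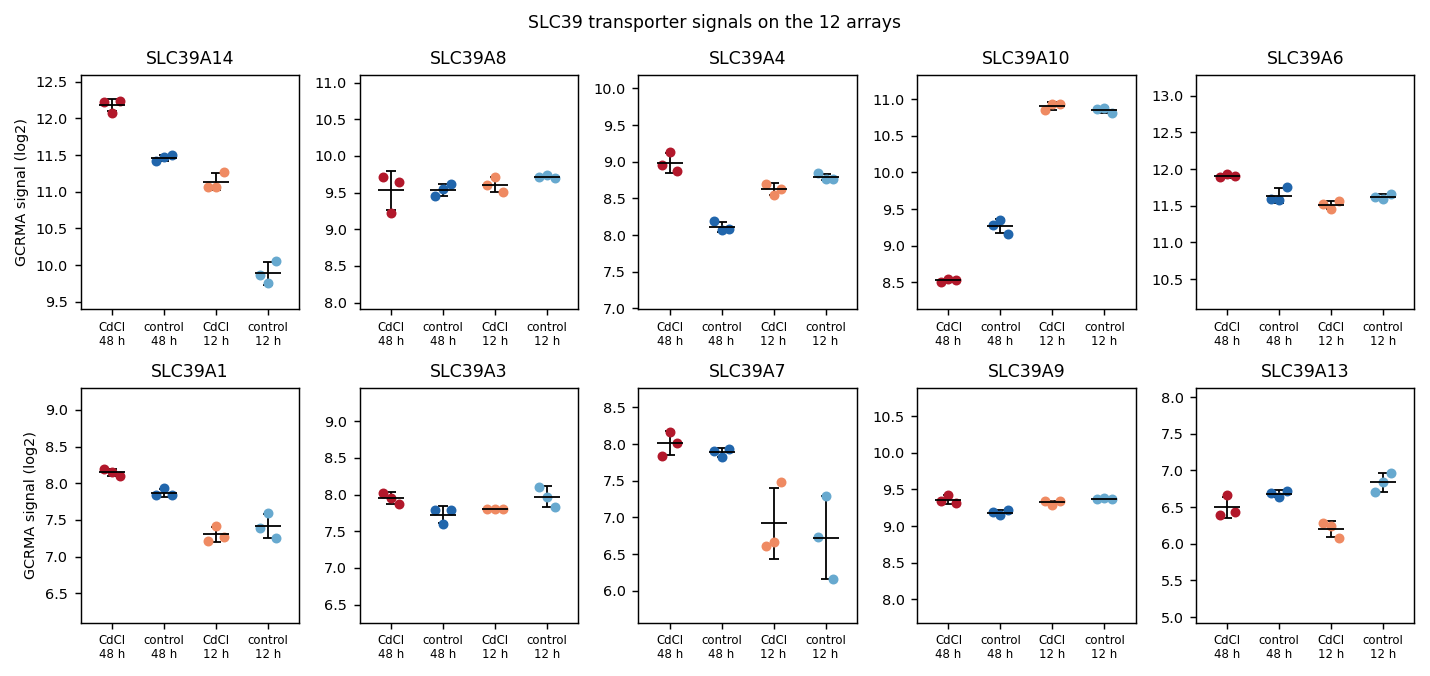
GCRMA log2 signal of each of the 10 members on the 12 arrays, by group, all panels with the same span; dots are arrays, the black mark and bar the mean ± SD of 3 arrays. Between 48 h and 12 h, SLC39A10 and SLC39A14 differ most in control cells, and SLC39A10 and SLC39A7 in CdCl cells. SLC39A8 stays between 9.22 and 9.74 on all arrays, and SLC39A7 spreads from 6.16 to 7.48 at 12 h.

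SLC39A1 and SLC39A3 encode ZIP1 and ZIP3, zinc importers of the plasma membrane found in many tissues. SLC39A1 at 48 h gave 8.20, 8.15 and 8.10 in CdCl cells, against 7.84, 7.94 and 7.84 in control cells, a rise of 0.28 ± 0.09 without overlap (adjusted p = 0.018). Leaving out replicate 1 of either 48 h group, or replicate 3 of the 48 h controls, ended this call (adjusted p = 0.052 to 0.059). At 12 h the arrays overlapped (7.22, 7.42 and 7.27 in CdCl cells, against 7.39, 7.60 and 7.26 in control cells, adjusted p = 0.29). SLC39A1 was higher at 48 h than at 12 h in CdCl cells (0.85 ± 0.09) and in control cells (0.45 ± 0.09, adjusted p = 9.7e-04).

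SLC39A3 at 48 h gave 8.02, 7.96 and 7.87 in CdCl cells, against 7.79, 7.60 and 7.79 in control cells, a rise of 0.22 ± 0.08 (adjusted p = 0.042). It was the least stable call of the comparison and held under 10 of 20 alternatives on the chosen probe set, with adjusted p up to 0.16 without control 48 h replicate 2. At 12 h all CdCl arrays read 7.81, against 8.11, 7.97 and 7.83 in control cells, and the change of -0.16 ± 0.08 did not pass (adjusted p = 0.12). No neighbouring pair of its group levels differed (adjusted p = 0.17 to 0.82).

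SLC39A7, SLC39A9 and SLC39A13 encode the members of intracellular membranes. SLC39A7 (ZIP7) releases zinc from the endoplasmic reticulum. At 12 h it gave 6.61, 6.67 and 7.48 in CdCl cells, against 6.73, 7.29 and 6.16 in control cells, the widest spread of any member. Its change of 0.19 ± 0.27 did not pass (adjusted p = 0.56) and turned to -0.08 without CdCl 12 h replicate 3 and to -0.09 without control 12 h replicate 3. At 48 h the values were 7.84, 8.17 and 8.02 in CdCl cells, against 7.91, 7.82 and 7.94 in control cells, again overlapping (0.12 ± 0.27, adjusted p = 0.73). Only the time differences passed: 48 h stood above 12 h by 1.09 ± 0.27 in CdCl cells (adjusted p = 0.0036) and by 1.16 ± 0.27 in control cells (adjusted p = 0.0028).

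SLC39A13 (ZIP13) works in the Golgi and early secretory vesicles, and its loss causes a form of Ehlers-Danlos syndrome. It gave 6.28, 6.24 and 6.08 in CdCl cells at 12 h, against 6.70, 6.84 and 6.97 in control cells, and the groups did not overlap. The change of -0.63 ± 0.09 (adjusted p = 1.5e-04) lay 0.47 under the median of all genes, at the 14.2 percentile. At 48 h it gave 6.39, 6.66 and 6.43 in CdCl cells, against 6.69, 6.63 and 6.72 in control cells, overlapping, with a change of -0.19 ± 0.09 that did not pass (adjusted p = 0.11). Without CdCl 48 h replicate 2, the array at 6.66, it was -0.27 and passed (adjusted p = 0.029).

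SLC39A9 (ZIP9), a Golgi and plasma membrane carrier also described as an androgen receptor, moved least among the members that passed at 48 h. It gave 9.34, 9.42 and 9.32 in CdCl cells, against 9.19, 9.15 and 9.22 in control cells, a rise of 0.18 ± 0.06 without overlap (adjusted p = 0.020). The call ended when only the 48 h arrays were fitted (adjusted p = 0.066) and without CdCl 48 h replicate 2 or control 48 h replicate 2 (adjusted p = 0.061 and 0.063). At 12 h it gave 9.34, 9.29 and 9.34 in CdCl cells, against 9.37, 9.38 and 9.37 in control cells (-0.05 ± 0.06, adjusted p = 0.46).

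**Figure D3:**
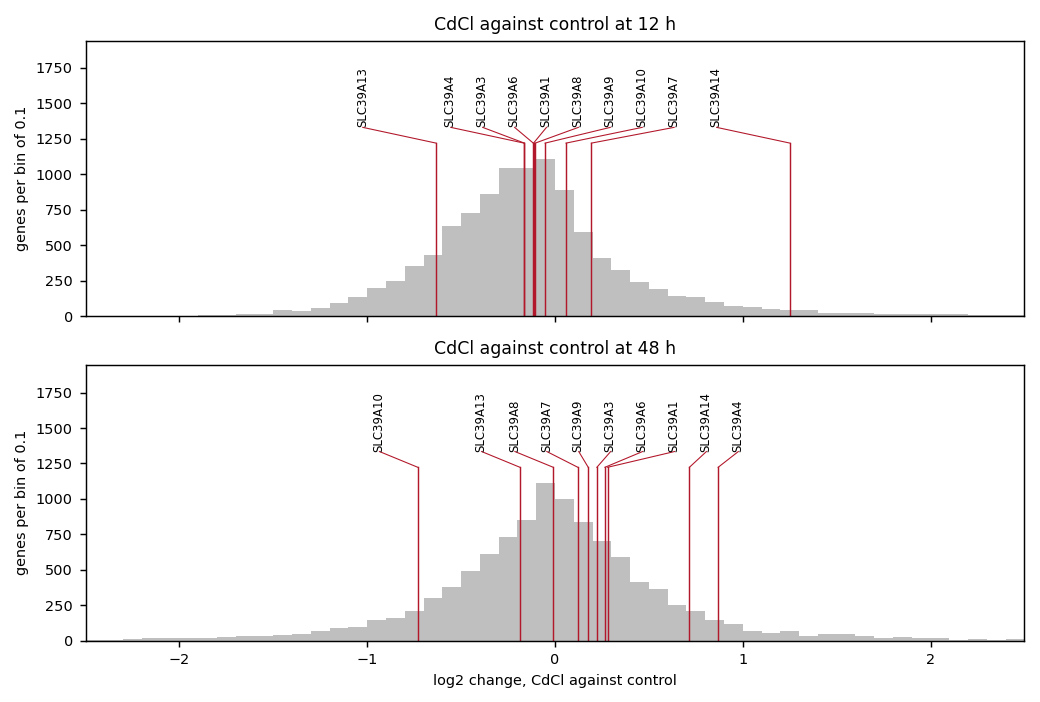
Histogram of the log2 change in CdCl against control cells over all 10683 genes tested, at 12 h (top) and 48 h (bottom), in bins of 0.1 and drawn from -2.5 to 2.5; red lines mark the 10 members. At 12 h 8 members lie between -0.16 and 0.19, in the body of the distribution, while SLC39A14 lies at the 96.9th percentile; at 48 h SLC39A4 lies at the 93.7th and SLC39A10 at the 9.30th percentile.

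Taking the times directly, 8 of the 10 members passed the test of the CdCl effect at 48 h minus that at 12 h, 6 with a positive and 2 with a negative difference, beside 40.1% of all genes (27% positive and 13% negative). The median of this difference over all genes was 0.13. With arrays centred on the median of the genes tested, 3 members remained, SLC39A4 positive and SLC39A10 and SLC39A14 negative. Between CdCl cells at 48 h and at 12 h, 6 members rose (SLC39A1, SLC39A4, SLC39A6, SLC39A7, SLC39A13 and SLC39A14) and SLC39A10 fell, beside 62.3% of all genes (34.7% higher and 27.6% lower). Between control cells at 48 h and at 12 h, 3 rose (SLC39A1, SLC39A7 and SLC39A14) and 4 fell (SLC39A3, SLC39A4, SLC39A9 and SLC39A10), beside 56.9% of all genes (23.4% higher and 33.5% lower). These comparisons share arrays with those of CdCl against control.

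At 12 h some other probe sets of the members gave values far from the chosen ones. The other probe set of SLC39A14 read 6.62 ± 0.07 in CdCl cells and 3.26 ± 0.35 in control cells at 12 h (SD, n = 3), with all 3 controls under 4, so CdCl was at least 6.15-fold higher there. That of SLC39A9 rose by 1.92 ± 0.27 at 12 h in the fit of all probe sets (adjusted p = 1.3e-04), where the chosen one gave -0.05. One of 3 for SLC39A6 rose by 1.05 ± 0.11 (adjusted p = 1.8e-05), where the chosen one gave -0.12, and 1 for SLC39A8 by 0.39 ± 0.14 (adjusted p = 0.031), where the chosen one gave -0.11. The fall of SLC39A13 was seen on both its probe sets, with -0.30 ± 0.11 on the other (adjusted p = 0.032). That other probe set read only 4.47 to 4.95 at 12 h, close to 4, and the median of all genes was -0.16. In that fit of 19005 probe sets 52.1% passed at 12 h.

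Within a gene, the gap between the other and the chosen probe set was compared for the 7 other probe sets that were not under 4 on every array of a group, a limit set after the values were seen. It left out the one of SLC39A14. Those of SLC39A6 share a chosen probe set, as do those of SLC39A8, so the 7 are not independent. A probe set of SLC39A8 among them read only 3.61 to 4.32, above 4 on 5 arrays. At 12 h the gap was narrower in CdCl than in control arrays for 7 of 7, by a median of 0.33, beside 62.4% of 7604 probe sets over all genes (median 0.09). At 48 h it was narrower in CdCl than in control arrays for 7 of 7, by a median of 0.12, beside 53.2%. These counts go by the mean gap of a group. At 48 h only SLC39A6 held probe sets whose CdCl and control gaps did not overlap. At 12 h the gaps overlapped for that of SLC39A13 and for part of those of SLC39A6 and SLC39A8. Between 48 h and 12 h the mean gap was narrower at 48 h for 6 of 7 in CdCl cells (median 0.16, beside 48.8%) and for 7 of 7 in control cells (median 0.41, beside 58.3%). For SLC39A9 the gap was -3.17, -2.73 and -3.26 in CdCl arrays at 12 h, against -4.44, -5.06 and -5.57 in control arrays, with the last of these read from a signal under 4. The lowest mean gap was that of the control 12 h arrays in each case. Between CdCl arrays at 48 h and at 12 h, the gaps overlapped for the probe sets of SLC39A8, SLC39A9 and SLC39A13. They did not overlap for part of those of SLC39A6. The cause of these gaps was not tested.

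Array controls differed between groups in differing ways. The 3' minus 5' difference of the GAPDH control probe sets was -0.02 ± 0.03 in CdCl arrays and 0.13 ± 0.09 in control arrays at 12 h (SD, n = 3), without overlap, and -0.01 ± 0.06 in CdCl arrays and -0.01 ± 0.03 in control arrays at 48 h. That of actin was 1.74 ± 0.05 in CdCl arrays and 1.90 ± 0.20 in control arrays at 12 h, overlapping, and 1.63 ± 0.22 in CdCl arrays and 1.495 ± 0.12 in control arrays at 48 h. Poly-A spike-ins, which follow labelling and not the state of the sample RNA, averaged 7.32 ± 0.004 in CdCl arrays and 6.84 ± 0.14 in control arrays at 12 h, without overlap, and 6.60 ± 0.53 in CdCl arrays and 6.40 ± 0.11 in control arrays at 48 h. Among CdCl arrays at 48 h, replicate 2 had the lowest spike-in mean, 5.99 against 6.92 and 6.89. Its actin difference was also the lowest, 1.40 against 1.67 and 1.82. Leaving this array out changed the 48 h calls of SLC39A9 and SLC39A13, as given above, and also ended that of SLC39A3. Without this array 4 members were called higher and 2 lower at 48 h. The part of these array controls in the members' 12 h and 48 h values was not tested. Nor was their part in the differences between 48 h and 12 h in control cells.

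**Figure D4:**
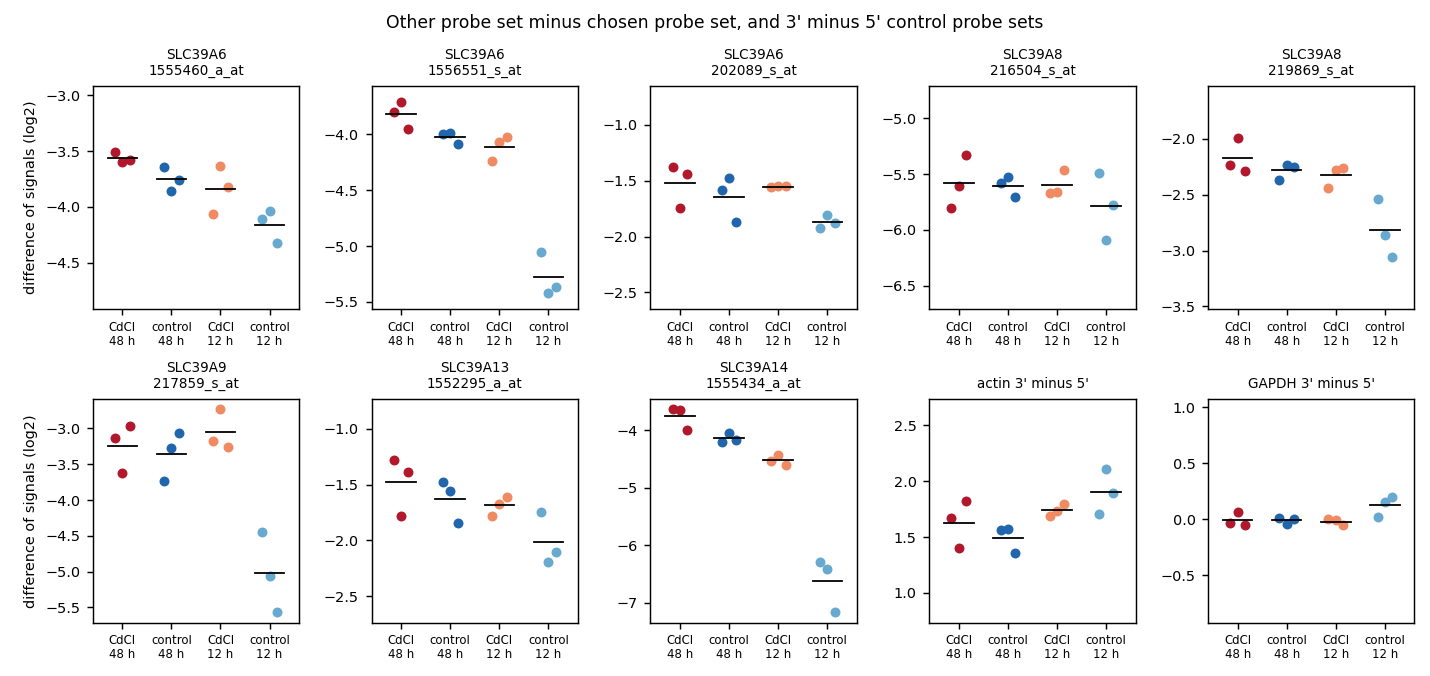
Log2 signal of each other probe set that passed the filter minus that of the gene's chosen probe set, by group, and the 3' minus 5' difference of the actin and GAPDH control probe sets; dots are arrays and lines means of 3. The level of a gap has no meaning of its own; the control 12 h arrays have the lowest mean gap in all 8 panels of members and the highest mean 3' minus 5' difference of both control transcripts. In the SLC39A14 panel the control 12 h signals of the other probe set lie under 4, so those gaps have no exact value.

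Of the 4 other SLC39 genes, SLC39A2, SLC39A5 and SLC39A12 lay under 4 on all arrays. SLC39A11 (ZIP11) gave 6.99, 7.26 and 7.29 in CdCl cells at 48 h, against 6.69, 6.62 and 6.72 in control cells, a rise of 0.50 ± 0.11 without overlap (adjusted p = 0.0019), and at 12 h it changed by 0.09 ± 0.11 (adjusted p = 0.52).

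On the export side, 3 of 7 tested SLC30 genes rose and 1 fell at 12 h (56.4% of all genes passed), and 3 rose and 0 fell at 48 h (54.6% of all genes passed), so the share called was near or under that of all genes. SLC30A1, the plasma membrane zinc exporter, gave 13.49, 13.61 and 13.58 in CdCl cells at 12 h, against 11.77, 11.79 and 11.77 in control cells. This rise of 1.78 ± 0.06 (adjusted p = 1.3e-09), and that of SLC30A2, a vesicular zinc carrier, by 1.92 ± 0.10, were larger than the change of any member on its chosen probe set at 12 h. At 48 h SLC30A2 rose by 2.45 ± 0.10 and SLC30A1 by 2.04 ± 0.06, and the Golgi carrier gene SLC30A6, which fell by 0.23 ± 0.07 at 12 h, rose by 0.24 ± 0.07. SLC30A7, another Golgi carrier, rose by 0.70 ± 0.12 at 12 h. Of 9 tested metallothioneins and MTF1, 8 rose and 0 fell at each time. Among them MT1M gave 13.98, 13.92 and 13.93 in CdCl cells at 12 h, against 9.06, 9.13 and 9.20 in control cells (28.2-fold), and MTF1 rose by 0.34 ± 0.08 at 12 h and 0.39 ± 0.08 at 48 h. Probe sets of metallothioneins can cross-hybridise within their family.

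The tested genes whose values lay closest to a member's, after centring each gene on its own mean, were found for the 3 members with the largest CdCl change. For SLC39A14 these were SGTB, HSP90B1 and FKBP14, with root mean square differences of 0.136, 0.137 and 0.144 log2 units over the 12 arrays. For SLC39A4 they were SH3BGRL3 (0.079), S100A16 (0.085) and EMG1 (0.099). For SLC39A10 they were SLC38A11 (0.108), HSPA12A (0.168) and EMP1 (0.181). The arrays of a group lie close together, so this likeness rests mainly on the 4 group means.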

How the data were processed

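Total RNA from 12 HK-2 samples was hybridised to Affymetrix arrays of 54675 probe sets, 1 array each. Per the submitters' processing notes, the authors made the deposited log2 signals with GCRMA, which corrects background by probe sequence, normalizes between arrays and summarises probe sets. The labels name no GCRMA version. Values were used as deposited. Array medians were 2.97 to 3.04.

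Symbols came from the platform annotation: 41091 probe sets carried 1 symbol, 1801 several and 11777, controls included, none, and 62 control probe sets were left out. A gene was tested if above 4 on at least 3 of 12 arrays. One limma fit (limma 3.58.1, R 4.3.3, lmFit and eBayes) of the 4 group means gave 5 two-sided comparisons. With 3 arrays against 3 an exact permutation test cannot go below p = 0.1, so calls depend on the moderated variance. A group whose 3 arrays all lay under 4 was set to 4 for a fold, written "at least". A second fit took every probe set with 1 symbol. No replicate block was used, since numbers are not stated to pair cultures. The fit was tested on simulated data.

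The members and gene lists were chosen with earlier results of these data known. Named genes are all members with their probe sets, the other SLC39 genes, up to 3 called genes of each list with the largest change at each time, and the 3 genes nearest to each of 3 members. The values given for TFRC and MTF1 were chosen after they were seen. Alternatives changed the scaling, filter, probe set, variance prior, arrays fitted and block, and left out each array in turn. Promoter sequences are from RefSeq (GRCh38.p14). Detection calls were not used here.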

Additional observations from a re-analysis of the deposited data

Results flagged for a closer look

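The effect of CdCl at 48 h differed from that at 12 h by the interaction test, in the fit of 10683 genes, for 8 members. As log2 differences, 48 h minus 12 h, these were 1.03 for SLC39A4 (limma adjusted p = 5.0e-05), -0.79 for SLC39A10 (8.6e-05), -0.54 for SLC39A14 (0.0062), 0.38 for SLC39A6 (0.0077), 0.45 for SLC39A13 (0.019), 0.39 for SLC39A3 (0.024), 0.39 for SLC39A1 (0.026) and 0.23 for SLC39A9 (0.041). Beside them, 40.1% of all genes passed and their median was 0.13. Those of SLC39A4, SLC39A10 and SLC39A14 passed under all 19 alternatives on the chosen probe set, and that of SLC39A9 under 6 of 19. On other probe sets the difference passed in the opposite direction for SLC39A6 (-0.58 on 1 of 3, adjusted p = 0.015) and SLC39A9 (-1.63, adjusted p = 0.0069, and -0.35 on the mean of its probe sets, adjusted p = 0.020). No outlier test was run on the groups of 3 arrays, but each array was left out in turn.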

How the results depend on the processing

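Of 109 recounts of members past the threshold over 5 comparisons, 105 lay within 1.5 times the count as reported. At 12 h, 2 members passed, but 4 did with the mean of all probe sets of a gene (3 higher, 1 lower) and 5 with the probe set of largest variance (4 higher, 1 lower), where SLC39A3 had no value. The difference between the times gave 8 as reported and 3 with each array centred on the median of the genes tested, a setting added after the data were seen. Leaving out 1 array gave 2 to 3 members at 12 h, 5 to 7 at 48 h, 5 to 8 for the difference between times (5 without CdCl 48 h replicate 1), 6 to 7 in CdCl cells and 6 to 8 in control cells over time. SLC39A14 passed at both times, and SLC39A4, SLC39A6 and SLC39A10 at 48 h and SLC39A13 at 12 h, in all 20 alternatives that kept the chosen probe set.

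The replicate number as a block left 2 members at 12 h, 7 at 48 h, 7 in CdCl cells and 7 in control cells over time, and 7 for the difference between times, where SLC39A9 was lost (adjusted p = 0.074). Deviations of same-numbered arrays correlated at -0.34 to 0.16, with 2 of 12 pairs over 0.1, and at neither time did any CdCl or control array correlate best with its own number (0 of 6 each; over time, 2 of 6 in CdCl cells and 3 of 6 in control cells), so the numbers were not taken as pairs.

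Signs turned as follows, on the log2 scale. With the mean of all probe sets the 12 h change was 0.045 for SLC39A3, 0.34 for SLC39A6, 0.065 for SLC39A8 and 0.47 for SLC39A9, the 48 h change of SLC39A8 was 0.029, and the difference between times was -0.0363 for SLC39A8 and -0.35 for SLC39A9. In CdCl cells over time it gave -0.0743 for SLC39A3, 0.0075 for SLC39A8 and -0.026 for SLC39A9, and in control cells 0.044 for SLC39A8, 0.32 for SLC39A9 and 0.041 for SLC39A13. With the probe set of largest variance the 12 h change was 1.05 for SLC39A6, 0.39 for SLC39A8 and 1.92 for SLC39A9, the 48 h change of SLC39A8 was 0.10, and the difference between times was -0.58 for SLC39A6, -0.29 for SLC39A8 and -1.63 for SLC39A9. In CdCl cells over time it gave 0.075 for SLC39A8 and -0.15 for SLC39A9, and in control cells 0.36 for SLC39A8 and 1.48 for SLC39A9. With arrays centred on the median of the genes tested the 12 h change was 0.035 for SLC39A1, 0.034 for SLC39A6, 0.044 for SLC39A8 and 0.097 for SLC39A9, the 48 h change of SLC39A8 was 0.014, the difference between times of SLC39A8 was -0.029 and the CdCl change over time of SLC39A9 was -0.0079. Centring arrays on the median of probe sets gave -0.00144 for SLC39A6 in control cells over time. Leaving out 1 array gave -0.0911 to 0.48 for SLC39A7 at 12 h, -0.35 to 0.21 for SLC39A7 between times, -0.10 to 0.15 for SLC39A8 at 48 h, -0.17 to 0.075 for SLC39A8 in CdCl cells over time and -0.042 to 0.048 for SLC39A6 in control cells over time. The probe set settings use other probe sets by construction, and the cause of their differing values was not tested. Signal over background limits the 8 member probe sets under the filter.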

Other observations

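Of 18 tested genes of iron, copper, manganese and organelle metal transport, 5 rose and 6 fell in CdCl cells at 12 h. At 48 h 8 rose and 4 fell. Over all genes 56.4% were called at 12 h (16.7% higher and 39.7% lower). At 48 h 54.6% of all genes were called (26.5% higher and 28% lower). This list was not tested as a set. SLC40A1, the iron exporter ferroportin, gave 5.93, 5.60 and 6.20 in CdCl cells at 48 h, against 7.91, 7.89 and 7.88 in control cells, so that CdCl cells had 0.253 of the control level (limma adjusted p = 3.6e-06). It had changed by -0.89 ± 0.18 (SE) at 12 h. The metalloreductase genes STEAP2 and STEAP1 fell by 0.78 ± 0.13 and 0.70 ± 0.09 at 12 h. At 48 h MCOLN1, a lysosomal cation channel, rose by 0.98 ± 0.16, and TMEM163, a vesicular zinc carrier, fell by 0.93 ± 0.10. TFRC, the transferrin receptor through which cells take up iron, gave 12.89, 12.82 and 12.93 in CdCl cells at 48 h, against 12.18, 12.26 and 12.02 in control cells, a rise of 0.73 ± 0.07 without overlap.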
